A study of Mus musculus with 3 samples.

Results

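The comparison described here sets mouse sperm after a high dose of doxorubicin (DXR, 0.2 mg/kg) against sperm after a low dose (0.02 mg/kg), in 2 of the 3 libraries of the series. Both treated groups and the vehicle control were C57BL/6 males aged 14 weeks, injected into the peritoneum 2 times a week for 5 weeks with high dose DXR, low dose DXR or saline. Sperm was taken from the cauda epididymis 4 days after the last injection, with 1 library per group, and the sources used here do not say whether a library pooled several animals. The members were every window of 500 bp in the deposited methylation table, 143198 windows in all, of which 82105 were annotated to a gene; each window was counted once and read in both treated libraries. With 1 library a dose there is no replicate check and no test, so all differences below are sizes between these libraries.

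DXR is an anthracycline that intercalates into DNA and traps topoisomerase II on broken strands. MBD-seq captures DNA fragments with the methyl-CpG-binding protein MBD2, so read density in a window reflects both how many CpGs it has and how many of them are methylated. Sperm DNA is densely methylated over gene bodies, repeats and intergenic sequence, with CpG-rich promoters mostly free of methylation. That pattern is laid down in prospermatogonia and kept through the stem cell and meiotic divisions. No unenriched library was used here, so a difference in methylation and a difference in copy number cannot be told apart.

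Values are RMS, the authors' methylation score per window, and RPM, their read density scaled to library size, which served as a check. A difference is log2((high dose RMS + c)/(low dose RMS + c)), with c = 0.766, the 10th percentile of RMS above 0 over the 3 libraries; a negative value means lower at the high dose. The limit for calling a window higher or lower was a difference of 1 in size, 2-fold on this scale, on which differences between low values are understated. The median RMS was 1.57 at the high dose, 1.67 at the low dose and 1.80 in the control, and the summed RPM was 457218, 482450 and 460205 in the same order. RMS was listed at 0 in 190 windows at the high dose, 77 at the low dose and 7 in the control.

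Promoters give a view of what the windows contain. The 8 promoters shown are the 3 furthest apart in each direction that shared 150 bases or more with a listed window, among windows whose larger RMS reached 1.68 and whose RPM moved the same way, leaving out predicted genes and clones, and 2 that lie in the distal Y block described below and were chosen after its values were seen. They come from RefSeq on GRCm38.p6, the assembly that mm10 names, cover 250 bases before to 50 after the gene's start, and are written 5′ to 3′ on the gene's strand, with each CG, the letters MBD2 can bind when methylated, in capitals. The motif CG reads the same on both strands and occurs in 94.6% of all 32851 RefSeq promoters of that length. The letters say nothing of which CGs were methylated.
Arhgef10l: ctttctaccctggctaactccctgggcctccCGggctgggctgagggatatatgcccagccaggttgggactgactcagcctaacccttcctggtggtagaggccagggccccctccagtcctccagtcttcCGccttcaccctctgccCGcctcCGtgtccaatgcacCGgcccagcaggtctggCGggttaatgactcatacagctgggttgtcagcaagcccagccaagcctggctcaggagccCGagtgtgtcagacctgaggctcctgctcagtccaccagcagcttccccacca
Capn12: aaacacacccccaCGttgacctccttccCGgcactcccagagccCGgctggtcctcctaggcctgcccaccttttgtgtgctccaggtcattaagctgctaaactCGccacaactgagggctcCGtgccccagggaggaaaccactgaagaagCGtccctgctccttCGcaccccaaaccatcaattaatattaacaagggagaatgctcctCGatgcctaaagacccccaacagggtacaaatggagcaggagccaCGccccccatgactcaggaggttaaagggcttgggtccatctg
Pnlip: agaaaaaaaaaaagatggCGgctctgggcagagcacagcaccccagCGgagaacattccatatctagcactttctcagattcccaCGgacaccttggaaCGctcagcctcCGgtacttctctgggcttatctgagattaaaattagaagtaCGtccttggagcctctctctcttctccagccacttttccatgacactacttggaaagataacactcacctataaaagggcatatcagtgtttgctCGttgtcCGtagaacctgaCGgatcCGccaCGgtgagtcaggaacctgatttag
Nostrin: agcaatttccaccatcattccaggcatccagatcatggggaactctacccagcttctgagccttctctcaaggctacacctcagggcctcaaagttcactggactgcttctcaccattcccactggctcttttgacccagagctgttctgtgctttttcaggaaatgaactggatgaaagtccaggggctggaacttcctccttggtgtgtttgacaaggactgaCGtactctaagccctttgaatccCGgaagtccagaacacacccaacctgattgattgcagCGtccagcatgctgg
Aqp1: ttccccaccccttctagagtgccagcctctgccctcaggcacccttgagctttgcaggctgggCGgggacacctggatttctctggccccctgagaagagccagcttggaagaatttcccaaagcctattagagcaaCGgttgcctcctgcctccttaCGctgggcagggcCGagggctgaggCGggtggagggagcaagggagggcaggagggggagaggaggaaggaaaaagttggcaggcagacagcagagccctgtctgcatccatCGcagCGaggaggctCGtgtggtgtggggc
Rps27rt: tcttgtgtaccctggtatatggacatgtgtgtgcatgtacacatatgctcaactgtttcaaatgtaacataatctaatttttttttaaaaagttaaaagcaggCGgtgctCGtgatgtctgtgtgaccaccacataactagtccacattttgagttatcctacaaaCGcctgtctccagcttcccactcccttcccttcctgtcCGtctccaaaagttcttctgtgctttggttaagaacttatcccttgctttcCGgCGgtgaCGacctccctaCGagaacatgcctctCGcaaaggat
Gm52481: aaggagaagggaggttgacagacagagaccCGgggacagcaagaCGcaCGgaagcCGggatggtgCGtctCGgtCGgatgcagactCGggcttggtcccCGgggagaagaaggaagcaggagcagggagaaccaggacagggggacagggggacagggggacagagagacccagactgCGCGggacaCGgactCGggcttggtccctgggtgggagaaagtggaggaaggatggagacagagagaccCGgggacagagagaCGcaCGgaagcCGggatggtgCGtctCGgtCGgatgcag
Gm33272: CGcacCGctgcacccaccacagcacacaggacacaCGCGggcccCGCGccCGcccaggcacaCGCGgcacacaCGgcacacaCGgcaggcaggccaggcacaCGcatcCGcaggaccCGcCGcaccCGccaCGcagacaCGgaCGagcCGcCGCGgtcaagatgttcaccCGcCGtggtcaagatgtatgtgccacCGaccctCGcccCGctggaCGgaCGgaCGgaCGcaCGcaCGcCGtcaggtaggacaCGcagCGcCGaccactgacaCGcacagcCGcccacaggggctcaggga

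Of these, the promoters higher at the high dose belonged to Arhgef10l, a guanine nucleotide exchange factor (chr4:140665838-140666137, 7 CGs), Capn12, a calpain protease (chr7:28881406-28881705, 9 CGs), and Pnlip, pancreatic lipase (chr19:58670115-58670414, 11 CGs). The Arhgef10l window had an RMS of 2.89 at the high dose, 1.24 at the low dose and 2.59 in the control, a difference of 0.86. The Pnlip window had 2.19 at the high dose, 1.06 at the low dose and 1.06 in the control, a difference of 0.70. The control thus sat near the high dose at Arhgef10l and at the low dose value at Pnlip.

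The promoters lower at the high dose belonged to Nostrin, which regulates traffic of endothelial nitric oxide synthase (chr2:69135550-69135849, 3 CGs), Aqp1, a water channel (chr6:55336049-55336348, 8 CGs), and Rps27rt, a copy of a ribosomal protein gene whose reads may be shared with its relatives (chr9:114982690-114982989, 9 CGs). The Nostrin window had an RMS of 0.93 at the high dose, 2.90 at the low dose and 2.21 in the control, a difference of -1.11. Aqp1 had 0.67 at the high dose, 1.87 at the low dose and 2.12 in the control, a difference of -0.87. Over all 942 windows that held 150 bases or more of a promoter, the median difference was -0.03. Past the limit 0 of these windows were higher and 3 lower, beside 0.0293% higher and 0.33% lower among all 143198 windows. A promoter in the table held a median of 8 CGs, against 7 over all promoters.

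The doses differed little over the genome as a whole. Of 143198 windows, 42 were higher at the high dose (0.0293% of windows) and 472 were lower (0.33%), and the median difference was -0.042, with a 95% order-statistic interval over windows of -0.043 to -0.040; it turned to 0.0073 after quantile normalization and to 0.021 after division by library medians. The excess of lower windows was smaller with 43 higher and 132 lower after quantile normalization, and 137 and 201 after the trend in mean RPM and CpG factor was subtracted. The SD over windows was 0.29, and the 1st and 99th percentiles were -0.83 and 0.60. Among gene-annotated windows 22 were higher (0.0268%) and 293 lower (0.357%), spread over 23 and 289 gene symbols. RPM moved the same way in all 514 windows past the limit, beside 129616 of all 143198 windows. Both measures come from the same libraries, so this is not an independent check. RPM was itself past the limit in 10 of the 42 higher and 271 of the 472 lower windows.

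**Figure D1:**
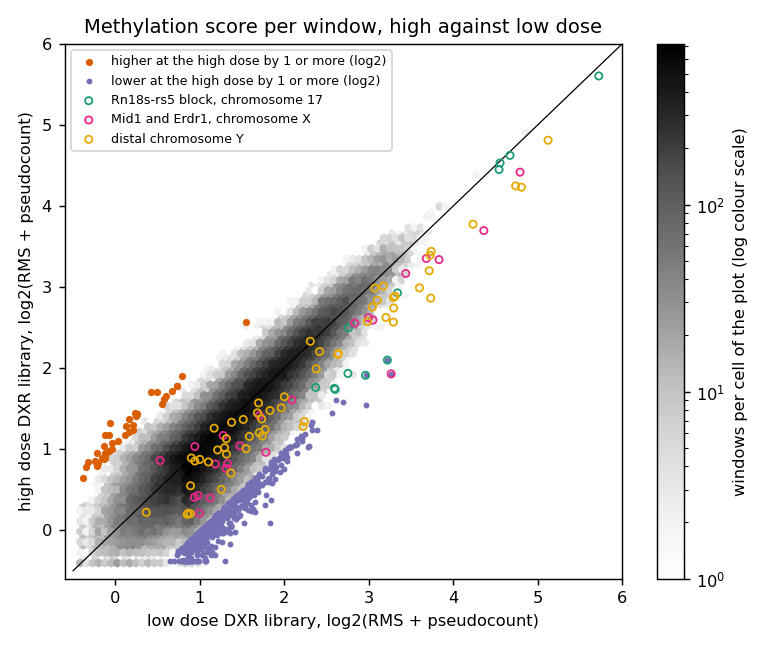
RMS of each window at the high dose (vertical) against the low dose (horizontal), both as log2(RMS + 0.766); grey shading gives the number of windows, filled points are the 42 windows higher and 472 lower by 1 or more, and open circles are the blocks on chromosomes 17, X and Y. Most windows past the limit are at low RMS, while the open circles lie below the diagonal up to high RMS; 14 windows above 6 on either axis are not drawn.

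Most windows past the limit were poorly covered. The 472 lower windows had a median RMS of 0.29 at the high dose, 1.55 at the low dose and 1.24 in the control, and 454 of them had a mean RPM below the median of all windows, which was 2.26. The 42 higher windows had a median RMS of 1.49 at the high dose, 0.23 at the low dose and 1.02 in the control, and 41 of them were below that median. In 26 of the lower windows and 1 of the higher windows, 1 of the doses was listed at 0. Ranked on mean RPM of both doses, the decile with fewest reads had a median difference of -0.13 and an SD of 0.37, and the decile with most reads had 0.05 and 0.17. The lowest decile held 21 of the higher and 186 of the lower windows, and the highest decile held 0 and 2.

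**Figure D2:**
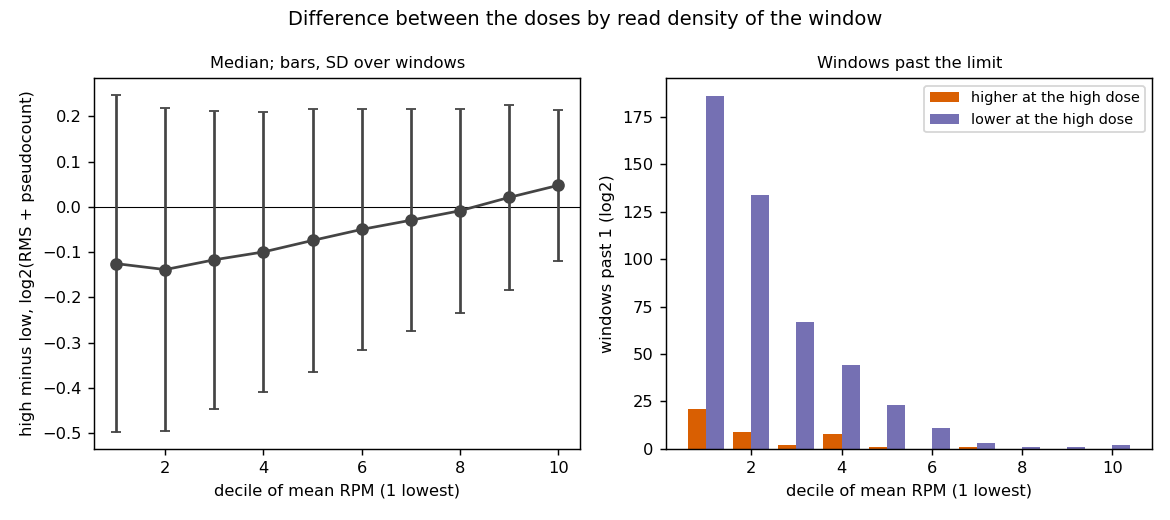
Difference between the doses by decile of windows ranked on mean RPM of both doses: left, the median with bars of 1 SD over windows; right, the number of windows past 1 on the log2 scale. The median runs from -0.13 in the lowest decile to 0.05 in the highest, and the windows past the limit lie mainly in the lowest deciles.

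Where read density was high, few windows stood apart. Among the 6764 windows with an RPM of 10 or more in a treated library, the median difference was 0.06 and the SD 0.17. A window could enter through 1 dose alone, which favours windows that differ. None was higher past the limit and 3 were lower. Of these 3, 2 touched each other beside a ribosomal DNA copy on chromosome 17, with an RPM above 10 at both doses. The other was in Erdr1 on distal chromosome X, with an RPM of 3.56 at the high dose and 10.5 at the low dose. Both places were followed up because of these values, so what is given on them is a description.

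Ribosomal DNA encodes the RNAs of the ribosome in long arrays of near-identical repeats, part of which are methylated and silent. The mm10 assembly carries a stray copy on chromosome 17, so reads from the arrays can be placed there. RefSeq marks Rn18s-rs5, an 18S ribosomal RNA pseudogene, at chr17:39846354-39848202, and the table listed 12 touching windows around it, from 39843001 to 39849000. All 12 were lower at the high dose than at the low dose, and both doses exceeded the control in all 12. The gap lay at the lower coordinates: the 6 windows before Rn18s-rs5, from 39843001 to 39846000, differed by -0.61 to -1.12, with a mean of -0.89.

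The window at 39843501 had an RMS of 3.52 at the high dose, 8.56 at the low dose and 2.87 in the control. The window at 39845501, next to the pseudogene, had 2.60 at the high dose, 5.27 at the low dose and 1.91 in the control. Mean RPM over the 6 windows was 15.4 at the high dose, 32.1 at the low dose and 10.6 in the control, which puts the high dose at 0.48 of the low dose and 1.45 of the control, and the low dose at 3.02 of the control. The high dose library was thus nearer to the control than to the low dose library in these windows.

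Over Rn18s-rs5 itself the doses were close. The window at 39846501 had an RMS of 22.4 at the high dose, 22.7 at the low dose and 15.95 in the control, a difference of -0.02. The window at 39847501, the highest of the block, had 47.9 at the high dose, 52.1 at the low dose and 36.0 in the control, a difference of -0.12. Mean RPM over the 5 windows that overlap Rn18s-rs5 was 83.7 at the high dose, 91.9 at the low dose and 55.8 in the control, with the high dose at 0.91 of the low dose. Neighbouring windows of the same repeat unit therefore differed between the doses by unequal amounts, and the number of repeat copies in each sample was not measured.

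**Figure D3:**
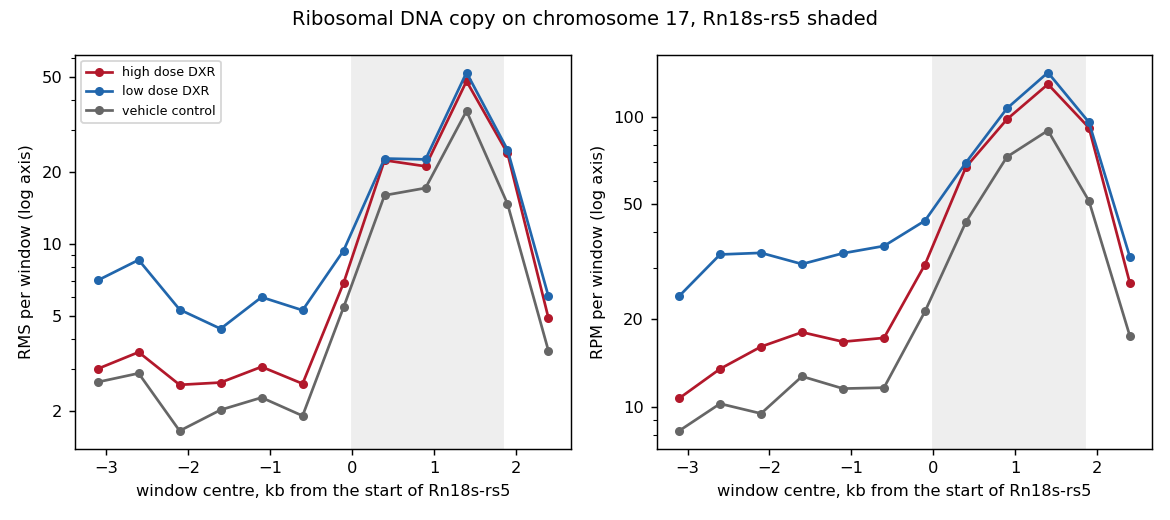
RMS (left) and RPM (right), both on log axes, of the 12 touching windows around Rn18s-rs5 (shaded), by distance of the window centre from its start, in the high dose, low dose and vehicle control libraries. Before the pseudogene the low dose line lies apart from the high dose line, at a mean RPM of 15.4 at the high dose and 32.1 at the low dose; over it the treated lines nearly meet, both above the control.

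The distal ends of the sex chromosomes were the other place where the doses parted over many windows. They carry the pseudoautosomal region, where X and Y share sequence and recombine in male meiosis, and in C57BL/6 mice its boundary falls within Mid1, a microtubule-associated ubiquitin ligase. The X and Y copies of this sequence are near-identical, so reads may be placed on either and their values are uncertain and not independent. Erdr1, an erythroid differentiation regulator by name, had 11 windows on X, where the table lists it as CR536618.1. RefSeq places Erdr1 at chrX:170010526-170018797 and marks it as a transcribed pseudogene. All 11 were lower at the high dose, with differences from -0.27 to -1.34 and a mean of -0.56.

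The Erdr1 window at chrX:170017501-170018000, in an intron, was the one past the limit, with an RMS of 3.04 at the high dose, 8.85 at the low dose and 3.60 in the control. The downstream window at 170019501 had 12.2 at the high dose, 19.8 at the low dose and 10.6 in the control. Mean RPM over the 11 windows was 26.2 at the high dose, 35.9 at the low dose and 17.05 in the control. The low dose exceeded the control in 11 of 11 windows and the high dose did so in 8.

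On Y the 21 windows annotated to ERDR1, from 90784001 to 90816500, were all lower at the high dose, with a mean of -0.48 and a range of -0.95 to -0.08. The window at 90792001 had an RMS of 6.52 at the high dose, 12.5 at the low dose and 6.42 in the control. The exon 1 window at 90784501 had 10.1 at the high dose, 12.6 at the low dose and 7.22 in the control. Against the control the first of these windows was nearly equal at the high dose, and the exon 1 window was above it at both doses.

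Around the predicted gene Gm52481 on Y (chrY:90742729-90745083), whose promoter is printed above, 11 of 11 windows were lower at the high dose, with differences from -0.31 to -0.58. Its promoter, with 20 CGs, shared 278 bases with a window that had an RMS of 18.2 at the high dose, 25.9 at the low dose and 12.1 in the control. The Gm33272 promoter, with 39 CGs, lies at chrY:90793437-90793736 within the ERDR1 windows, and its window had 7.30 at the high dose, 8.24 at the low dose and 4.57 in the control, a difference of -0.16. Over the 55 listed windows of distal Y from 90738501 on, 53 were lower at the high dose, with a mean difference of -0.40. Mean RPM there was 12.8 at the high dose, 18.0 at the low dose and 8.68 in the control.

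Mid1 on X was mostly lower at the high dose too, in 10 of its 12 windows, with a mean of -0.34. Further out on the same chromosome end Asmt went the other way. It encodes the last enzyme of melatonin synthesis and lies at chrX:170672644-170678054. Its 6 windows were all higher at the high dose, from 0.03 to 0.79 with a mean of 0.30. Its window at 170673501 had an RMS of 2.27 at the high dose, 0.99 at the low dose and 1.15 in the control. Without its Mid1 and Erdr1 windows, but with those of Asmt, X had a median difference of 0.003 over 3495 windows. Without the listed windows of distal Y, Y had one of 0.03 over 1384.

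**Figure D4:**
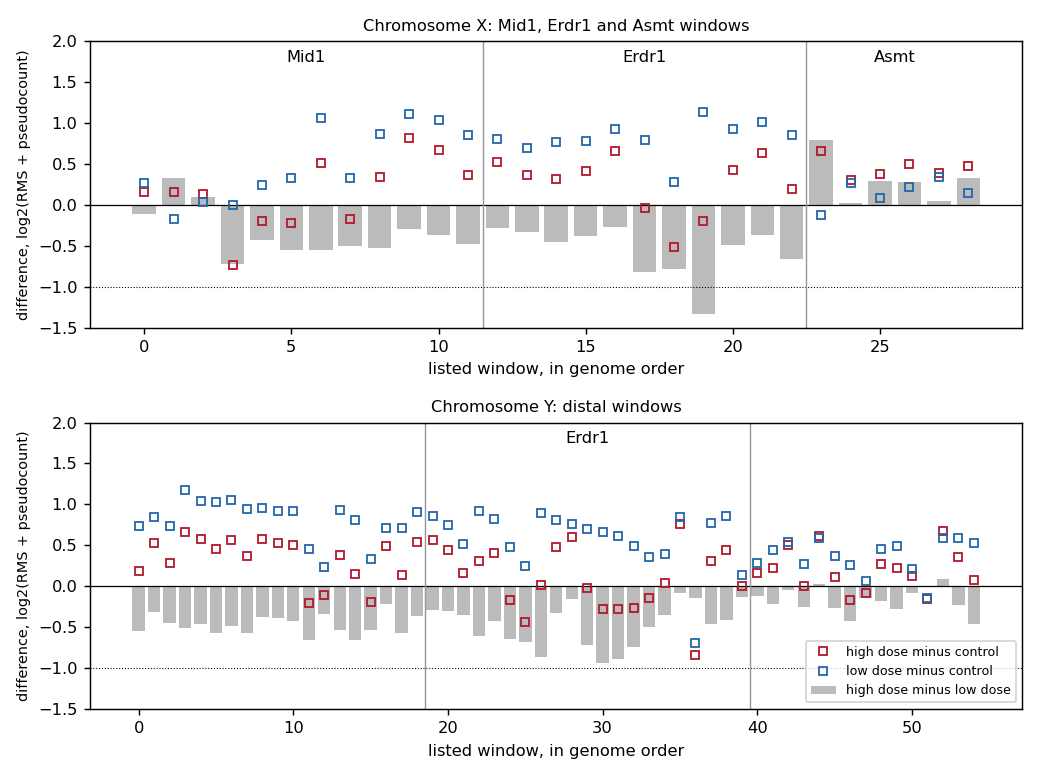
Differences in log2(RMS + 0.766) for listed windows in genome order: top, Mid1, Erdr1 and Asmt on chromosome X; bottom, the 55 distal windows of chromosome Y, with the 21 ERDR1 windows between the vertical lines. Bars are high dose minus low dose, red squares high dose minus control and blue squares low dose minus control; bars lie below 0 in all Erdr1 windows of both chromosomes and above 0 in all 6 Asmt windows.

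To find other stretches where the doses parted, the mean difference was taken over every group of 8 consecutive listed windows within 20 kb, 19439 groups with an SD of 0.12. The lowest 4 groups, without overlap, were the ribosomal copy (-0.72), ERDR1 on Y (-0.67), Erdr1 on X (-0.66) and Gm52481 on distal Y (-0.49). The Gm52481 group held mostly windows already described above and ended in a window annotated to MID1 (Mid1-ps1 in RefSeq). These 4 groups were followed by an intergenic stretch at chr4:150793501-150811500 (-0.49) and by Ctdspl, a small C-terminal domain phosphatase, at chr9:118929501-118948500 (-0.47). In all 6 of these groups each of the 8 windows was lower at the high dose. In the last 2, mean RMS was 0.96 and 0.95 at the high dose, 1.61 and 1.59 at the low dose, and 1.91 and 1.69 in the control, so that the control was nearest to the low dose there.

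The groups highest at the high dose were less far apart. The first was intergenic in the table, at chr17:27336001-27354000, where RefSeq has the long non-coding RNA Gm10505 over part of it, with a mean of 0.44 and all 8 windows higher. Mean RMS there was 2.76 at the high dose, 1.90 at the low dose and 2.90 in the control. Others among the 6 highest were Mlec with Unc119b (0.35), Galnt2 (0.33), a stretch of chromosome 12 at Gm10476 (0.33) and Chd3, a nucleosome remodelling subunit (0.32). In these 4 groups 6 or 7 of the 8 windows were higher. With groups of 5 windows, 3 of the 6 higher groups and 3 of the 6 lower groups overlapped a top group again, and with groups of 12 windows 2 and 4 did.

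Single gene windows were named if RMS reached 1.68, the median of all nonzero values, at one dose or both and RPM moved the same way. The 12 genes furthest up at the high dose differed by 0.98 to 1.18, and only 7 of these 12 reached the limit. Slc39a11 (ENSMUSG00000041654), a zinc transporter, led in an intron at chr11:113500001-113500500, with an RMS of 1.93 at the high dose, 0.43 at the low dose and 0.76 in the control. Map3k4, a MAP kinase kinase kinase needed for testis determination in mice, had the highest level, in an intron at chr17:12263001-12263500, with 5.17 at the high dose, 2.16 at the low dose and 4.45 in the control, a difference of 1.02. Jakmip1, a microtubule-binding protein, had 2.98 at the high dose, 0.95 at the low dose and 2.70 in the control, a difference of 1.12.

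Ccdc147, a flagellar protein, differed by 1.05 in exon 17, with an RMS of 2.66 at the high dose, 0.89 at the low dose and 2.22 in the control. Kifap3, the accessory subunit of kinesin-2 that builds cilia, differed by 1.04 in exon 9, with 2.30 at the high dose, 0.73 at the low dose and 2.76 in the control. Stxbp2, a syntaxin-binding protein of exocytosis, differed by 1.05, with 2.39 at the high dose, 0.75 at the low dose and 1.02 in the control. Maml3, a Notch co-activator, differed by 1.04 in this window, while another of its introns held one past the limit the other way, at -1.35, with 0.065 at the high dose, 1.35 at the low dose and 1.01 in the control. Klhl8, Pxdn, Hsdl1, Slit3 and Sertad4 lay just short of the limit, at 0.98 or more. The control was nearer to the high dose than to the low dose in 25 of all 42 higher windows, and the same share over all windows is not given here.

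The 12 genes furthest down at the high dose all passed the limit. Rpa1 (ENSMUSG00000000751), a subunit of the single-strand DNA-binding complex RPA, came first with its window over exons 17 and 18 at chr11:75301001-75301500, which was listed at 0 at the high dose, in RMS and in RPM, against an RMS of 1.70 at the low dose and 1.77 in the control. No fold is given for it. Its other windows did not follow: 7 of 13 Rpa1 windows were higher at the high dose, and an intronic one at chr11:75337501-75338000 was past the limit the other way, with 1.67 at the high dose, 0.33 at the low dose and 1.48 in the control.

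Asph, an aspartate beta-hydroxylase, had the highest level among the lower windows. Its intronic window at chr4:9614501-9615000 had an RMS of 2.15 at the high dose, 7.08 at the low dose and 2.77 in the control, a difference of -1.43, and RPM was 1.14, 4.06 and 1.52 in the same order. Zdhhc23, a palmitoyltransferase, had 0.53 at the high dose, 2.81 at the low dose and 2.24 in the control over exon 4, a difference of -1.46. Ppm1l, a protein phosphatase, had 0.30 at the high dose, 2.12 at the low dose and 0.57 in the control, a difference of -1.44.

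Tox2, D11Wsu47e, Col4a2, Lsm6, Cdh13 and Cltb, and the window shared by Itsn1 and Atp5o, differed by -1.31 to -1.43, all in introns. At Tox2, D11Wsu47e, Col4a2, Lsm6 and Cdh13 the control lay nearer to the low dose, as it did in 356 of all 472 lower windows. At Asph, Ppm1l, Cltb and the Itsn1 and Atp5o window it lay nearer to the high dose. The control was above both doses in 112 of the 472, between them in 353 and below both in 7. The same shares over all windows are not given here. In the decile with fewest reads the median RMS was 0.52 at the high dose, 0.65 at the low dose and 1.19 in the control. There the control median was above both doses, while in 353 of the 472 lower windows the control lay between them. Whether the position of the control is particular to windows past the limit was not tested.

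**Figure D5:**
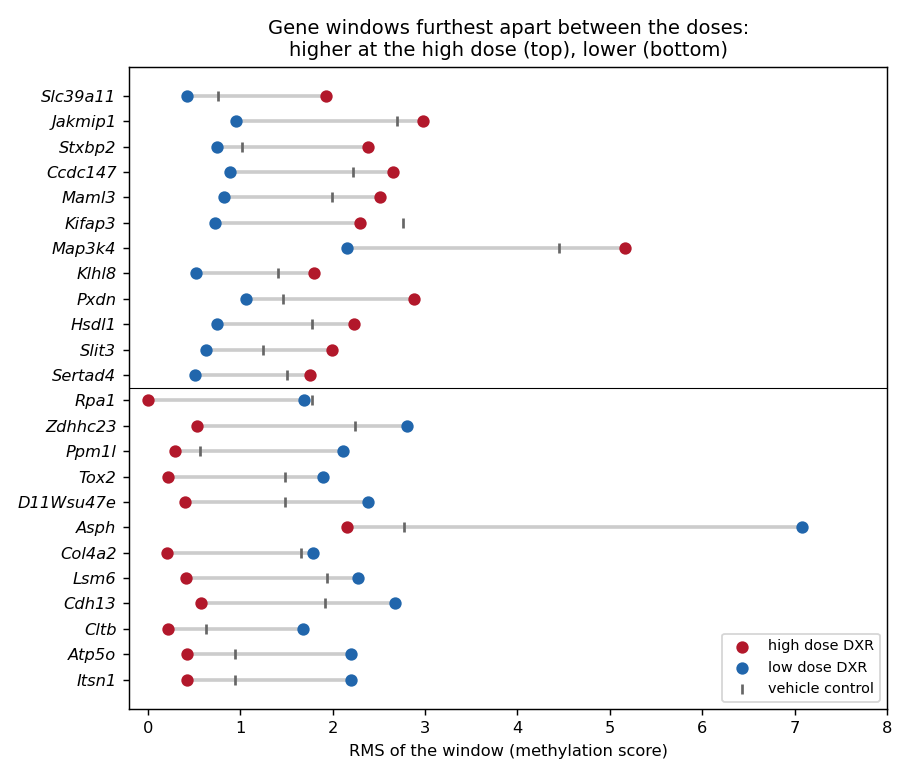
RMS of the gene windows furthest apart between the doses, 12 genes higher at the high dose above the line and 12 lower below it, in the high dose (red), low dose (blue) and vehicle control (grey tick) libraries, 1 library each. Asph spans the widest range, from 2.15 at the high dose to 7.08 at the low dose, and Rpa1 is listed at 0 at the high dose; Itsn1 and Atp5o share 1 window.

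Of the genes with more than 1 window past the limit, leaving out predicted genes and clones, 14 had all of them lower at the high dose and 0 had all of them higher. Another 3 (Rpa1, Maml3 and St3gal3, the last named after its values were seen) had 1 each way. These counts stand beside 293 lower and 22 higher windows among all gene-annotated windows, so they are not read as a trait of these genes. Fto, an RNA demethylase, had 3 intronic windows, at chr8:91370501, 91410001 and 91582501, with an RMS of 0.23, 0.15 and 0.12 at the high dose, 1.35, 1.12 and 1.19 at the low dose and 1.28, 0.67 and 0.87 in the control. A further 13 genes had 2 such windows, among them Asph, Cdh13, Ubash3b, Pcnt and Gxylt1, and no gene had 2 higher windows. Ubash3b, a tyrosine phosphatase, had 1.60 at the high dose, 4.47 at the low dose and 3.46 in the control at chr9:41097001-41097500. Pcnt, which encodes the centrosome protein pericentrin, had 0.61 at the high dose, 2.34 at the low dose and 1.21 in the control over exon 14, and its other window was at 0 in the high dose library.

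Touching windows past the limit formed 6 pairs, all lower at the high dose, and no triplet. They lay beside Rn18s-rs5, in Pxdn, Efr3a, Prkce and Ndst1, and between genes on chromosome 10. The Ndst1 pair, in a heparan sulfate sulfotransferase gene at chr18:60709501-60710500, had the highest RMS of the 4 gene pairs, with 1.33 and 1.17 at the high dose, 3.68 and 3.29 at the low dose and 3.28 and 2.35 in the control. The Prkce pair, in a protein kinase C gene, had 0.05 and 0.21 at the high dose, 0.89 and 1.55 at the low dose and 1.58 and 2.61 in the control. Pxdn also had a window that was higher at the high dose, by 0.99, so its windows did not move one way.

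Averaged over a gene, differences were small. Of 5157 genes with 5 windows or more, 1408 had a mean difference above 0 and 3749 below, with a median of -0.06 and an SD of 0.11. The highest means were those of Zfp828 (Champ1 in RefSeq), which helps chromosomes align on the spindle, at 0.48 ± 0.43 (SD over 5 windows; 0.30 without its furthest window, which had an RMS of 1.03 at the high dose, 0.035 at the low dose and 0.59 in the control), and Ccdc135 (Drc7), of the dynein regulatory complex of sperm tails, at 0.36 ± 0.20 (SD over 7 windows). All 7 Ccdc135 windows were higher at the high dose, and its median RMS was 3.04 at the high dose, 2.45 at the low dose and 2.12 in the control. Ppil1, Ispd, ORF63 and Akap7 followed at 0.34 to 0.35.

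The lowest means were those of Gzmk, which encodes granzyme K, at -0.56 ± 0.32 (SD over 5 windows), and Rpia, an enzyme of the pentose phosphate pathway, at -0.53 ± 0.55 (SD over 5 windows). All 5 Gzmk windows were lower at the high dose, with a median RMS of 0.73 at the high dose, 1.06 at the low dose and 1.34 in the control. Rpia rested on 2 of its windows, over exon 5 (0.79 at the high dose, 2.94 at the low dose, 1.63 in the control) and exon 2 (0.48 at the high dose, 1.65 at the low dose, 1.73 in the control), and its mean was -0.34 without the first. Efr3a, ERDR1 on Y, Casp9 and Frem1 followed at -0.50 to -0.45. Of the 12 genes named by their means, ERDR1 had the most windows, 21.

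Windows over the first exon of some transcript, not always the main one, numbered 5808, with a median difference of -0.03, 2 higher (0.0344%) and 17 lower (0.293%) past the limit, near the shares of all gene-annotated windows, 0.0268% and 0.357%. Named among them were those whose larger RMS reached 1.68. Stxbp2, given above, led upward, followed by Arhgef10l, Capn12, Sema4c, Zmynd11 and Usp42 at 0.76 to 0.86. Sema4c, a semaphorin, had the highest RMS of these, 4.82 at the high dose, 2.43 at the low dose and 4.22 in the control. The 6 furthest down at that level were Atm, Plxna3, Nostrin, Snx29, Sorbs2 and Rfx5, at -1.17 to -1.05. Rfx5, a regulator of MHC class II genes, had 0.76 at the high dose, 2.41 at the low dose and 0.92 in the control, and Plxna3, a semaphorin receptor on X, had 0.56, 2.23 and 1.54 in the same order.

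The Atm window is of interest because ATM is the kinase that signals double-strand breaks, the lesion DXR makes. It lies at chr9:53442501-53443000, over exon 61 of the long transcript and exon 1 of a short one, far from the main start, and had an RMS of 0.56 at the high dose, 2.23 at the low dose and 0.61 in the control, a difference of -1.17. All 7 Atm windows were lower at the high dose, with a mean of -0.41 ± 0.39 (SD over 7 windows). Those over exons 43 and 27 differed by -0.55 and -0.58.

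Gene lists for DXR targets, germ cells and other cell types held 343 genes, 230 with a listed window, and 1525 windows. Of these windows 1 was higher and 7 lower past the limit, against the 0.0268% and 0.357% of gene-annotated windows given above. The median difference was below 0 in 15 of the 16 lists, from -0.18 to 0.02, against -0.05 over all gene-annotated windows, and was below 0 in 9 of the 16 after the trend in mean RPM and CpG factor was subtracted. In the topoisomerase and double-strand break list 22 of 30 genes had windows, with a median of -0.13 over 112 windows, 0 higher and 1 lower, which was Atm. The only list window for Top2a, a target of DXR, had an RMS of 4.13 at the high dose, 3.73 at the low dose and 3.84 in the control. In the replication list 22 of 30 genes had windows, with a median of -0.06 and Rpa1 past the limit both ways.

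No window passed the limit in the lists for anthracycline transport (15 of 19 genes, 85 windows), oxidative stress defence (16 of 27, 57 windows), apoptosis (16 of 24, 97 windows), or chromatin regulators (25 of 32, 201 windows). Among all gene-annotated windows 0.0268% were higher and 0.357% lower. At those shares lists of this size hold few such windows or none, so no trait of these genes is read from the counts. Prdx5, a peroxiredoxin, came nearest upward, with 2.03 at the high dose, 0.85 at the low dose and 1.24 in the control. Casp9, the initiator caspase of the mitochondrial pathway, came nearest downward, with 0.66 at the high dose, 2.09 at the low dose and 2.31 in the control. Hdac4, a histone deacetylase, had 0.82 at the high dose, 2.32 at the low dose and 2.19 in the control, and Dnmt3a, a de novo methyltransferase, had 2.35, 3.82 and 2.06 in the same order. The cardiac list (16 of 19 genes, 304 windows), included for the known heart toxicity of DXR, had 1 lower window, in an intron of the calcium channel gene Ryr2.

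Germ cell lists had few windows past the limit, beside 0.0268% higher and 0.357% lower among all gene-annotated windows. At those shares lists of this size hold few such windows or none, so the counts are not read as a trait of these genes. None passed in the spermatogonial list (12 of 20 genes, 146 windows), the spermatid and sperm list (19 of 30, 50 windows) or the list of germline-specific genes that somatic cells methylate (9 of 18, 34 windows). Their medians were -0.06, -0.12 and 0.02, against -0.05 over all gene-annotated windows. In the spermatid and sperm list, the lowest of these, gene means were above 0 in 4 of 19 genes and below 0 in 15, beside 5303 and 9874 of 15181 gene symbols. Gene means in the spermatogonial list were above 0 in 3 of 12 genes and below 0 in 9, the highest being the 1 window each of Nanos2 at 0.73 and Pou5f1 at 0.49. Gfra1, a receptor for the niche signal GDNF, had 0.58 at the high dose, 1.90 at the low dose and 2.32 in the control in an intron. Izumo1, the sperm protein that binds the egg, had 0.72 at the high dose, 1.97 at the low dose and 2.71 in the control. Sycp1, of the synaptonemal complex, was higher at the high dose in 5 of 5 windows, with a mean of 0.30 ± 0.12 (SD over 5 windows). Piwil1, like Sycp1 in the meiosis and piRNA list, was lower in 12 of 12, with a mean of -0.21 ± 0.17 (SD over 12 windows). Gene means in that list were above 0 in 8 genes and below 0 in 13. The meiosis and piRNA list (21 of 29, 106 windows) had 1 lower window, upstream of Mei1, with 0.26 at the high dose, 1.49 at the low dose and 1.31 in the control.

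Imprinted loci keep parent-specific methylation, in sperm at the paternally methylated ones. All 6 paternally methylated genes had windows, 26 in all with a median of -0.07 and none past the limit. Among all gene-annotated windows 0.0268% were higher and 0.357% lower. The H19 first-exon window at chr7:142576501 had an RMS of 5.65 at the high dose, 5.94 at the low dose and 5.58 in the control. The largest difference was in exon 9 of Rasgrf1, with 1.13 at the high dose, 2.51 at the low dose and 2.56 in the control. Among maternally methylated loci (13 of 22 genes, 131 windows, median -0.12) 2 intronic windows were lower, in Slc38a4 and Trappc9, with 0.38 and 0.55 at the high dose, 1.78 and 2.10 at the low dose and 1.02 and 1.53 in the control. Whether these windows cover the imprinting control regions was not examined.

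Lists for cells that could accompany sperm were not detailed enough to place the sample, since the table lists windows above a score and not unmethylated ones. The Sertoli and Leydig list had 7 of 18 genes, 21 windows and a median of -0.18, the epididymal list 8 of 15, 21 windows and -0.07, and the leukocyte list 10 of 14, 34 windows and -0.09. The median RMS of these lists was 0.98, 1.19 and 1.04 at the high dose, 1.29, 1.14 and 1.29 at the low dose and 1.46, 1.26 and 1.29 in the control, and their part in the differences was not tested. The 1 window past the limit was in exon 9 of Itgb7, a leukocyte integrin. Its RMS was 0.25 at the high dose, 1.70 at the low dose and 2.97 in the control. Among all gene-annotated windows 0.0268% were higher and 0.357% lower.

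By position, intronic windows had a median difference of -0.06 and 0.46% of them were lower past the limit, against -0.04 and 0.25% of exonic and -0.03 and 0.29% of intergenic windows. Intronic windows also had the lowest median mean RPM of these 3 classes, 1.79, against 2.35 in exons and 2.61 between genes. After the trend in mean RPM and CpG factor was subtracted, the medians were -0.008, 0.005 and 0.001. The autosomes ran from a median of -0.06 on chromosome 19 to -0.03 on chromosome 7, while X and Y were at 0.001 and 0.02.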

How the data were processed

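MBD-seq of sperm DNA gave 1 library each for high dose DXR, low dose DXR and vehicle control. The authors deposited 1 table of windows on mm10, per the submitters' processing notes. Its RPM is the authors' read density scaled to library size, per the file headers. RMS and AMS are the authors' deposited methylation scores per window, which the headers do not spell out; RMS divided by AMS is the same in all libraries and is called the CpG factor here. Aligner, read filters and reads per window are not stated in these sources, so no counting interval is given.

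The 297037 lines were reduced to 143198 windows. The table is filtered: each window exceeds an RMS of 1 in some library. Differences, the limit of 1 and the regions were computed in Python 3.11.15 with pandas 2.3.3 and numpy 2.4.6, and tested on simulated data. Named genes are the 12 windows furthest apart each way, 6 gene means over 5 or more windows, genes or touching runs with 2 or more windows past the limit, 6 first-exon windows each way and up to 3 members of each of 16 lists. Predicted, RIKEN, small RNA and receptor cluster genes were not named by that rule. The regions, blocks and promoters with their genes were named after their values were seen. So were Sycp1, Piwil1, Top2a, Mei1, Nanos2, Pou5f1, St3gal3, the microRNAs, Fam155a, Cactin, Rrp7a and Lyrm4. Members and lists were chosen with earlier results of these data known. The remaining group of the 6 highest is not reported here. Alternatives changed the pseudocount, scaling, measure, trend and filter.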

Additional observations from a re-analysis of the deposited data

How the results depend on the processing

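No paired analysis was possible because each group had 1 library, and no library could be left out for the same reason. The counts of 42 higher and 472 lower windows were 660 and 3544 with the pseudocount divided by 3, and 0 and 2 with it multiplied by 3. It was 43 and 132 after quantile normalization, 79 and 392 after division by library medians, 16 and 518 in RPM, and 137 and 201 after subtraction of the trend. It was 1 and 41 among 97689 windows with RMS above 1 in both doses, and 17 and 206 among 76718 windows whose larger RMS reached the median. The median difference of -0.042 was -0.053 and -0.026 with the smaller and larger pseudocount, -0.089 in RPM, -0.0089 and -0.0095 under these filters and 0 after subtraction of the trend. It turned to 0.0073 after quantile normalization and to 0.021 after division by library medians, so the small overall shift has no fixed direction. Without the distal X, distal Y and Rn18s-rs5 windows, an alternative chosen after seeing the data, the counts were 42 and 469. The named gene means and regions kept their sign under each of the 8 alternatives. With the larger pseudocount, though, the mean of the 6 windows before Rn18s-rs5 was -0.68, and that of the Gm52481 group on distal Y was -0.39. Each was more than 1 SD over its windows from its value with the pseudocount of 0.766. Without each gene's furthest window, an alternative chosen after seeing the data, all 12 gene means kept their sign. The 12 lower named windows all passed the limit under 6 of the alternatives. Of these 6, the filter on the larger RMS was also part of the rule that named the windows, so its outcome was fixed. With the larger pseudocount 1 passed, and the filter on both doses left 1, past the limit. The 12 higher ones passed in 0 with the larger pseudocount and in 2 in RPM.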

Other observations

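Outside the genes named by rule, windows with a high read density at 1 dose or both were also ranked. Entry through 1 dose alone favours windows that differ. Among the 6764 windows with an RPM of 10 or more at either dose, the one furthest up at the high dose was in an intron of Fam155a, a subunit of the NALCN sodium leak channel, at chr8:9551001-9551500. It had an RMS of 6.66 at the high dose, 3.27 at the low dose and 3.90 in the control, a difference of 0.88. Cactin, a splicing cofactor, followed with 12.8 at the high dose, 7.27 at the low dose and 8.60 in the control over an exon, a difference of 0.75. Rrp7a, which acts in ribosomal RNA processing, had 11.3 at the high dose, 6.71 at the low dose and 5.40 in the control, a difference of 0.68. Below the X, Y and ribosomal windows, Lyrm4, of iron-sulfur cluster assembly, was the furthest down in a gene, a difference of -0.70. Its RMS was 3.08 at the high dose, 5.50 at the low dose and 4.14 in the control. Each of these windows reached an RPM of 10 at 1 dose only. RPM was 10.7 at the high dose and 6.42 at the low dose for Fam155a, and 15.0 and 9.77 for Cactin. It was 10.5 and 7.07 for Rrp7a, and 8.24 and 11.9 for Lyrm4.

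Windows annotated to microRNAs numbered 98 and had a median difference of -0.09, with none past the limit. The furthest apart was one upstream of Mir680-3, with an RMS of 0.30 at the high dose, 1.07 at the low dose and 1.46 in the control. The next were one that Mir1224 shares with Alg3 and Vwa5b2, with 0.47 at the high dose, 1.30 at the low dose and 0.83 in the control, and one over Mir365-1, with 1.06 at the high dose, 2.23 at the low dose and 1.76 in the control. At the imprinted cluster of chromosome 12, the window of Mir323 and Mir758 had 5.43 at the high dose, 3.65 at the low dose and 4.27 in the control. Predicted genes had 2 higher and 18 lower of 5612 windows, olfactory receptors 0 and 0 of 62, and vomeronasal receptors 0 and 0 of 116, beside the 0.0268% and 0.357% of all gene-annotated windows. The 57 windows at the start of chromosome 9 had a summed RPM of 2076.4 at the high dose, 2078.7 at the low dose and 2323.6 in the control. A single window reached an RPM of 586 at the high dose; the median difference over the windows was 0.11, and 43 of the 57 windows were higher at the high dose.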
